A study of Mus musculus with 6 samples.

Results

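The 32 genes described here encode proteins that carry fatty acids into heart muscle cells and oxidise them in mitochondria. They were taken from the count table by gene symbol, from a list of 32 names. All 32 were among the 24062 gene symbols counted by RNA-seq, and all 32 were among the 13629 symbols that passed the filter on low counts. RNA came from both ventricles of male C57/Bl6N mice at 1 day of age, with 3 control libraries (CreNEG, no Cre recombinase) and 3 Med12cKO libraries (CrePOS, with Cre for a knockout of Med12 that the labels call cKO). Med12 encodes a subunit of the Mediator kinase module, a regulator of RNA polymerase II at genes bound by transcription factors. The promoter that drives Cre, the Med12 alleles of the control mice and whether each library is 1 animal are not given in the sources used here. The p-values therefore measure the spread between these samples, and an effect of Cre cannot be told apart from one of Med12 loss.

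Fatty acids reach the cardiomyocyte from lipoproteins, are bound and activated to acyl-CoA, cross the mitochondrial membranes as carnitine esters and are shortened by the repeated reactions of beta-oxidation. Electrons from the first reaction pass through the electron transfer flavoprotein to the respiratory chain. The heart turns from glucose and lactate to fatty acids as its main fuel around birth, and many of these genes are induced then by the nuclear receptors PPAR-alpha and ERR with the coactivator PGC-1.

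Library totals ran from 8453346 to 10911698 counts, of which the 32 genes took between 1.33% and 1.76%. Values below are counts relative to library size, scaled by the TMM method and written CPM, and group values are mean ± SD with n = 3. The target gene Med12 measured 103, 176 and 113 CPM across controls 1 to 3 against 61.6, 84.96 and 41.3 CPM across Med12cKO 1 to 3, with no overlap between the groups. Its log2 fold change was −1.06 (SE 0.30), which did not pass edgeR over all genes (edgeR adjusted p = 0.765), while DESeq2 gave an adjusted p of 0.025. Markers of heart muscle cells were abundant in every library, with a summed level of 42570.0 to 55627 CPM over 10 genes in control and 34805 to 45645 CPM in Med12cKO. Control replicate 3 and Med12cKO replicate 1 also held T cell and thymus transcripts, at a summed 787 and 789 CPM over 10 genes against 3.33 to 5.41 CPM in the other 4 libraries. Without both libraries 26 of the 32 genes were negative, with a median log2 fold change of −0.13, against the values over all libraries below.

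Most fatty acid genes had lower values in 2 of the 3 Med12cKO libraries, the third did not share this, and none of the 32 passed the test. Of the 32 genes, 28 had a negative log2 fold change and 4 a positive one, while 47.8% of all genes tested were negative. The median was −0.14, against 0.0081 over all genes tested, and values ran from −0.69 for Cpt1b to 0.12 for Cpt1a. No member was called at an adjusted p under 0.05 by edgeR's quasi-likelihood test, which called 0.0220% of all genes, 0.0147% lower and 0.00734% higher. DESeq2 and limma-voom also called 0 members, against 0.477% and 0.0293% of all genes. At an unadjusted p under 0.05 edgeR placed 3 members lower, against 1.61% of all genes, and 0 higher, against 2.16%. Those were Pdk4, Cpt1b and Acsl1, and they were also the 3 members in which every Med12cKO library lay below every control, which held for 3.64% of all genes. No member had every Med12cKO library above every control, against 4.59% of all genes.

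**Figure D1:**
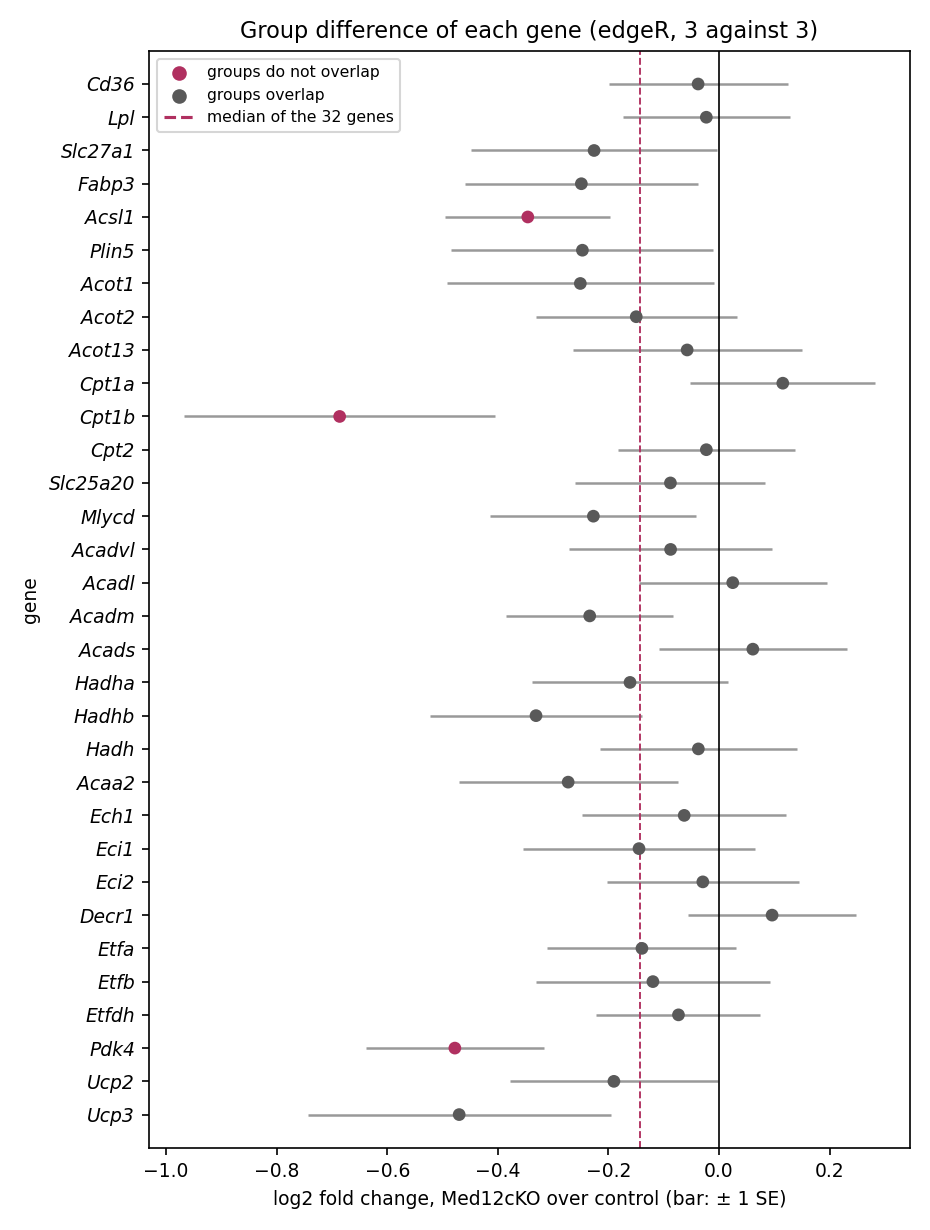
The x axis gives the log2 fold change of Med12cKO over control for each of the 32 genes on the y axis, with bars of 1 SE from edgeR (3 against 3 libraries). Most points lie left of 0, the dashed line marks the median of −0.14, and the 3 coloured points are the genes whose groups do not overlap.

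The libraries of the Med12cKO group differed from each other by more than the group means did for most members, as for most genes tested. The median log2 ratio of the 32 genes to their control mean was 0.093, 0.10 and −0.18 for controls 1 to 3, and it was −0.31, −0.35 and 0.17 for Med12cKO 1 to 3. Med12cKO replicates 1 and 2 were thus low and Med12cKO replicate 3 stood above every control median, while control replicate 3 had the lowest control median. Med12 itself was lowest in Med12cKO replicate 3, at 41.3 CPM against 61.6 and 84.96 CPM in replicates 1 and 2. A relation of Med12 level to the member values was not tested. Med12cKO replicate 3 was the highest Med12cKO library in 29 of the 32 genes, against 39.7% of all genes tested, and was above every control in 16, against 30.8%. Control replicate 3 was the lowest control in 28 of 32, against 36.2%. Med12cKO replicate 2 was the lowest of all 6 libraries in 20 of 32, against 22.6%. The 3 exceptions to the first of these counts were Lpl, Cpt1a and Cpt1b. The median within-group SD of the members was 0.18 in control and 0.33 in Med12cKO on the log2 scale, against 0.16 and 0.22 over all genes tested. In 29 of the 32 genes the range of the 3 Med12cKO libraries exceeded the difference between the group means, as it did in 90.5% of all genes.

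**Figure D2:**
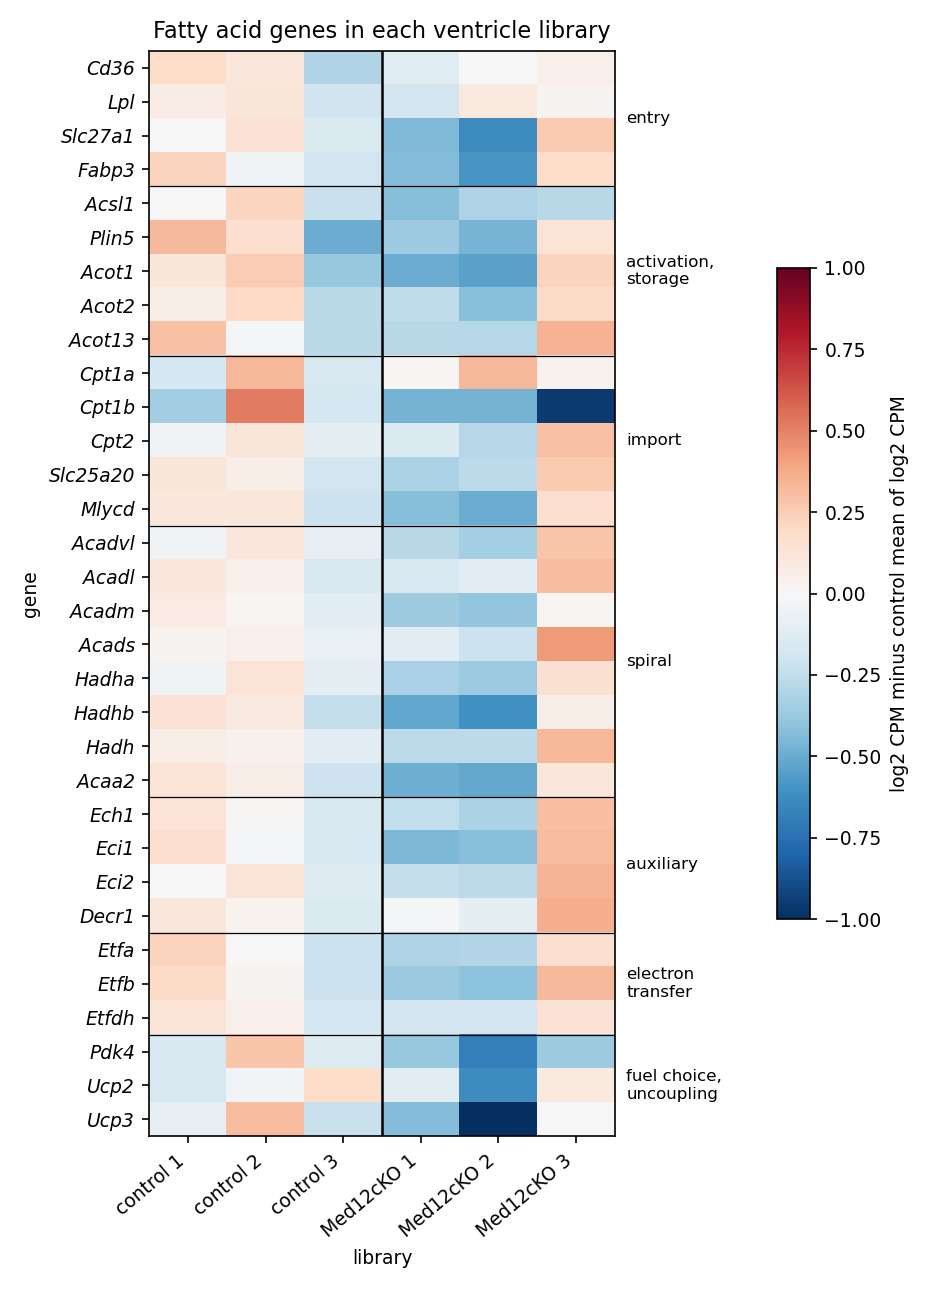
Columns are the 6 libraries, rows the 32 genes in order of their step in the pathway, and colour is log2 CPM minus the control mean of log2 CPM. Blue fills most of Med12cKO replicates 1 and 2 (medians −0.31 and −0.35), and Med12cKO replicate 3 is red in most genes (median 0.17).

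The group median rests on which libraries were used. Without Med12cKO replicate 3, 31 of 32 genes were negative, against 48.3% of all genes, with a median of −0.35. In that setting 15 members had an unadjusted edgeR p under 0.05, against 7.58% of all genes. Still 0 were called, with lowest edgeR adjusted p = 0.407 for Slc27a1 and Hadhb. Without Med12cKO replicate 1 or 2 the median was −0.052 and −0.038, and without control replicate 1, 2 or 3 it was −0.066, −0.099 and −0.22. Members with an unadjusted edgeR p under 0.05 then numbered 2 and 1 without Med12cKO replicate 1 or 2. They numbered 2, 0 and 4 without control replicate 1, 2 or 3. The share of all genes in these settings was 2.35% to 3.95%. Among the 4 libraries whose sample description opens with the letter I, the meaning of which is not given, 14 of 32 genes were negative and the median was 0.022. Those with the letter J are 1 control and 1 Med12cKO library and allow no test. Over 17 alternative settings 12 genes kept a negative sign in all of them, namely Slc27a1, Acsl1, Acot1, Cpt1b, Mlycd, Acadm, Hadha, Hadhb, Acaa2, Pdk4, Ucp2 and Ucp3. The settings reuse the same libraries, and the share of all genes that kept their sign was not counted. For Ucp2 the least negative value was −0.011.

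The libraries in which the fatty acid genes were low also had a lower median over 10 cardiomyocyte markers. The median log2 ratio of 10 cardiomyocyte markers, among them Tnnt2, Tnni3 and Myl2, was 0.13, −0.0069 and −0.15 for controls 1 to 3 and −0.52, −0.45 and −0.0028 for Med12cKO 1 to 3. Of these 10 markers 9 had a negative log2 fold change, with a median of −0.26. Single markers differed from the pattern by library. Actc1 measured 11946, 6201 and 5062 CPM across controls 1 to 3 against 6881, 8172 and 6803 CPM across Med12cKO 1 to 3. Ryr2 was low in every Med12cKO library, at 665, 898 and 711 CPM against 1211, 1458 and 1229 CPM across controls 1 to 3. The part of cardiomyocyte content in the member values was not tested, and in whole ventricles fewer cells of a type and less RNA per cell cannot be told apart. Some adipocyte markers were higher in the same 2 libraries, at a low level. Ucp1, which defines brown fat, measured 3.27 and 3.35 CPM in Med12cKO replicates 1 and 2 and at most 0.67 CPM in the other 4 libraries. Cidea, another brown fat gene, went the other way, with its 2 lowest values of 30.9 and 29.2 CPM in these libraries against 32.9 to 46.3 CPM in the other 4. Over all 10 adipocyte markers the summed level was 42.5 to 54.0 CPM in control and 55.7 to 93.9 CPM in Med12cKO, with Cidea and Car3 the most abundant, and none was at 0 in all libraries. The summed level of 10 liver markers was 20.6 to 26.2 CPM in control and 26.5 to 151 CPM in Med12cKO, highest in Med12cKO replicate 1. That library was also high in skeletal muscle transcripts, such as Mylpf at 43.4 CPM against 4.83 to 7.30 CPM in the other 5. Over 11 skeletal muscle markers the summed level, most of it from Ckm, which heart muscle also expresses, was 2136 to 2791 CPM in control and 1901 to 3075 CPM in Med12cKO. Of the 8 tested, 7 were positive (median log2 fold change 1.45), with a median log2 ratio of 2.36, 0.37 and −0.051 for Med12cKO 1 to 3. Their part in the member values was not tested.

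Lpl and Cd36, the first genes on the way of fatty acids into the cell, had close group means. Lpl encodes lipoprotein lipase, which frees fatty acids from circulating lipoproteins. It measured 1237, 1277 and 1024 CPM across controls 1 to 3 against 1034, 1254 and 1194 CPM across Med12cKO 1 to 3, and the groups overlapped almost fully (log2 fold change −0.023, SE 0.15). Cd36 encodes the main fatty acid translocase of the heart, which capillary endothelium also carries. Its levels were 1304, 1246 and 935 CPM across controls 1 to 3 against 1056, 1145 and 1192 CPM across Med12cKO 1 to 3, with a log2 fold change of −0.038 (SE 0.16). Here the low library was control replicate 3 and the Med12cKO libraries were close together. Endothelial markers summed to 2118 to 2243 CPM in control and 1934 to 2156 CPM in Med12cKO over 10 genes.

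The other two entry genes showed the spread between Med12cKO libraries. Slc27a1, which encodes the fatty acid transport protein FATP1, measured 267, 296 and 242 CPM across controls 1 to 3 against 197, 172 and 320.3 CPM across Med12cKO 1 to 3. Med12cKO replicates 1 and 2 were below every control and replicate 3 above every control, 1.86-fold above replicate 2. The log2 fold change was −0.23 (SE 0.22) and, without Med12cKO replicate 3, −0.55 (edgeR adjusted p = 0.407). Fabp3 encodes the heart fatty acid binding protein, which carries fatty acids through the cytosol. Its Med12cKO replicates 1 and 2 were also below every control, while replicate 3 lay within the control range, with 640.2, 533 and 479.9 CPM across controls 1 to 3 against 404, 365 and 621 CPM across Med12cKO 1 to 3 (log2 fold change −0.25, SE 0.21). Of the 50-base stretches of its longest transcript 37.3% also occur in other annotated transcripts, most of them in the pseudogene Fabp3-ps1, so its count is uncertain to that extent.

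Among the genes for activation and storage, Acsl1 was lower in every Med12cKO library. Acsl1 (chromosome 8, 46471037 to 46536051, plus strand) encodes the main long-chain acyl-CoA synthetase of the heart. It measured 885, 1027 and 756 CPM across controls 1 to 3 against 658, 714 and 728 CPM across Med12cKO 1 to 3. The highest Med12cKO library lay just under the lowest control. The log2 fold change was −0.35 (SE 0.15), the Med12cKO mean was 78.7% of the control mean, and edgeR gave an unadjusted p of 0.045 that did not pass over all genes (edgeR adjusted p = 0.9999). Med12cKO replicate 3, which was above the control mean in 28 of the 32 genes, stood for Acsl1 at 81.8% of the control mean. Over 17 alternative settings its log2 fold change ran from −0.45 to −0.23. A second, downstream RefSeq window of Acsl1 (chr8:46490716-46490965) holds CCAAT boxes and no GC box, and which start is used here was not tested. The bases before the upstream start are shown because they hold 4 copies of the GC box bound by SP1-type factors, in capitals (chr8:46470787-46471036, GRCm38.p6, plus strand, RefSeq).
Acsl1: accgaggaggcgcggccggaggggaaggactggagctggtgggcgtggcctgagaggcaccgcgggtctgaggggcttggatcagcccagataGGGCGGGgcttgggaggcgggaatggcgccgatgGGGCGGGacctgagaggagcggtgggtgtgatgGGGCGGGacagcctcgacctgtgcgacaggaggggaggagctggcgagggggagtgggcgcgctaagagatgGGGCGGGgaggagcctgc

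The remaining storage and thioesterase genes overlapped between groups. Plin5 encodes perilipin 5, which coats lipid droplets and tethers them to mitochondria, and measured 47.3 ± 13.1 CPM without Cre against 39.9 ± 9.27 CPM for Med12cKO (log2 fold change −0.25, SE 0.24). Acot13, a mitochondrial acyl-CoA thioesterase gene, measured 145 ± 28.3 CPM without Cre against 139 ± 37.1 CPM for Med12cKO (log2 fold change −0.058, SE 0.21). Acot1 and Acot2 are neighbouring genes on chromosome 12 (84009490 to 84018371 and 83987861 to 83993873, plus strand) for a cytosolic and a mitochondrial thioesterase that release free fatty acids from acyl-CoA. Acot1 measured 142, 155 and 99.9 CPM across controls 1 to 3 against 92.4, 89.6 and 152 CPM across Med12cKO 1 to 3. Acot2 measured 184, 201 and 146 CPM across controls 1 to 3 against 147, 131 and 201 CPM across Med12cKO 1 to 3. Med12cKO replicate 3 lay within the control range for both genes and replicate 2 below it, with log2 fold changes of −0.25 (SE 0.24) and −0.15 (SE 0.18).

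Counts of the Acot pair depend on how reads in their shared sequence were treated. Their coding sequences are 95.6% identical over 1236 aligned bases in GENCODE M21 transcripts. The longest identical stretch is 273 bases, from coding base 887 to 1159 of Acot1 and 1010 to 1282 of Acot2. It is shown because a read inside it belongs to either gene, and how such reads were counted is not given in the sources used here.
Acot1 and Acot2: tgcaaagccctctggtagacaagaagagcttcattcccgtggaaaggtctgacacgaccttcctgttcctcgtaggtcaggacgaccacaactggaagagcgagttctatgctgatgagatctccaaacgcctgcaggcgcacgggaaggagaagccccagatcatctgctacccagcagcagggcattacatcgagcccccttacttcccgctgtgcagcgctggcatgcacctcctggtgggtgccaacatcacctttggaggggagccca

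For mitochondrial import, the 2 carnitine palmitoyltransferase 1 genes among the members had opposite signs, and the count of one of them is doubtful. Cpt1a encodes the isoform of liver and fetal heart, which makes the carnitine ester at the outer membrane. It measured 191, 272 and 192 CPM across controls 1 to 3 against 219, 270.5 and 220.0 CPM across Med12cKO 1 to 3. The groups overlapped (log2 fold change 0.12, SE 0.17), and it was the member with the highest log2 fold change. Cpt1b (chromosome 15, 89416405 to 89425863, minus strand), the muscle isoform, measured only 7.02, 12.96 and 7.94 CPM across controls 1 to 3 against 6.43, 6.41 and 4.52 CPM across Med12cKO 1 to 3. Every Med12cKO library lay below every control, with a log2 fold change of −0.69 (SE 0.28) and an unadjusted p of 0.037 (edgeR adjusted p = 0.9999).

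The count of Cpt1b is uncertain. In GENCODE M21 81.4% of its exon bases also belong to a read-through model with the neighbouring gene Chkb on the same strand. The deposited table lists that read-through under its own symbol with a count of 0 in all 6 libraries, and Cpt1b itself had 42 to 136 counts. How reads in exons of more than 1 gene were treated is not given in the sources used here. The overlap and the small number of counted reads both limit the Cpt1b value. Cpt1b was also an exception to the library pattern, as Med12cKO replicate 3 was its lowest library.

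Among the further import genes, Cpt2 and Slc25a20 had group means that lay closer together than the SD of either group. Cpt2, which remakes acyl-CoA at the inner membrane, measured 185 ± 14.5 CPM without Cre against 182 ± 39.5 CPM for Med12cKO (log2 fold change −0.023, SE 0.16). Slc25a20, the carnitine-acylcarnitine translocase, measured 218 ± 23.7 CPM without Cre against 206 ± 47.8 CPM for Med12cKO (log2 fold change −0.088, SE 0.17). Mlycd encodes malonyl-CoA decarboxylase, which removes the inhibitor of CPT1. It measured 121, 122 and 96.9 CPM across controls 1 to 3 against 83.9, 79.9 and 126 CPM across Med12cKO 1 to 3, with Med12cKO replicates 1 and 2 below every control and replicate 3 above every control (log2 fold change −0.23, SE 0.19).

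Genes of the beta-oxidation spiral itself shared the highest Med12cKO library. In all 8 it was replicate 3, while replicate 1 was the lowest for Acadl and Hadh and replicate 2 for the other 6. The 4 acyl-CoA dehydrogenases take the first step for very long, long, medium and short chains. Acadvl measured 1028 ± 74.6 CPM without Cre against 967 ± 238 CPM for Med12cKO, and 42.9% of its exon bases are shared with Dvl2 on the opposite strand. Acadl measured 1447 ± 138 CPM without Cre against 1472 ± 269.7 CPM for Med12cKO, with log2 fold changes of −0.088 (SE 0.18) for Acadvl and 0.025 (SE 0.17) for Acadl. Acadm encodes the medium-chain enzyme and measured 712, 682 and 627 CPM across controls 1 to 3 against 525, 511 and 683 CPM across Med12cKO 1 to 3. Med12cKO replicates 1 and 2 were below every control and replicate 3 lay within the control range (log2 fold change −0.23, SE 0.15). Acads, for short chains, measured 232, 236 and 217 CPM across controls 1 to 3 against 211, 197 and 306 CPM across Med12cKO 1 to 3. Its controls differed by at most 1.09-fold, while Med12cKO replicate 3 was 134% of the control mean, so that its log2 fold change was positive at 0.061 (SE 0.17).

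The trifunctional protein, which carries out the later steps for long chains, is built from Hadha and Hadhb, and both were low in the same libraries. Hadha measured 1663, 1873 and 1598 CPM across controls 1 to 3 against 1365, 1330.0 and 1897 CPM across Med12cKO 1 to 3 (log2 fold change −0.16, SE 0.18). Hadhb measured 248, 238 and 190.1 CPM across controls 1 to 3 against 156, 147 and 234 CPM across Med12cKO 1 to 3 (log2 fold change −0.33, SE 0.19). In both, Med12cKO replicates 1 and 2 were below every control. Without Med12cKO replicate 3 the values were −0.35 and −0.58, and neither passed (edgeR adjusted p = 0.634 and 0.407). The 2 genes stand head to head on chromosome 5, Hadha at 30118304 to 30155162 on the minus strand and Hadhb at 30155248 to 30184593 on the plus strand. The 85 bases between the gene models (chr5:30155163-30155247, GRCm38.p6, plus strand, RefSeq) are shown because they precede both starts, with a GC box in capitals.
Hadha to Hadhb: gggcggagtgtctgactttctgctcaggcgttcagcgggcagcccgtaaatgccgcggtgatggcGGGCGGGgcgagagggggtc

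The remaining members of the spiral, Acaa2 and Hadh, also had their lowest values in Med12cKO replicates 1 and 2. Acaa2, the mitochondrial thiolase, measured 1320.5, 1256 and 1041 CPM across controls 1 to 3 against 854, 839.8 and 1300.0 CPM across Med12cKO 1 to 3. Med12cKO replicates 1 and 2 stood at 70.8% and 69.7% of the control mean and replicate 3 at 108% (log2 fold change −0.27, SE 0.20). Hadh, the short-chain hydroxyacyl-CoA dehydrogenase, measured 579, 569 and 515 CPM across controls 1 to 3 against 461, 463 and 697 CPM across Med12cKO 1 to 3 (log2 fold change −0.037, SE 0.18). Its Med12cKO replicate 3 was above every control, and its groups overlapped.

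The auxiliary enzymes, which bring the double bonds of unsaturated fatty acids into a form the spiral can use, had log2 fold changes from −0.14 to 0.096. Decr1, the dienoyl-CoA reductase, was the one with a positive sign and measured 348, 330.4 and 291 CPM across controls 1 to 3 against 319, 302 and 415 CPM across Med12cKO 1 to 3 (log2 fold change 0.096, SE 0.15). Ech1, an isomerase of dienoyl-CoA, measured 712 ± 71.1 CPM without Cre against 681 ± 169 CPM for Med12cKO (log2 fold change −0.063, SE 0.18). Eci1, an enoyl-CoA isomerase, measured 253 ± 28.8 CPM without Cre against 228 ± 72.7 CPM for Med12cKO (log2 fold change −0.14, SE 0.21). Its relative Eci2 measured 200.1 ± 17.7 CPM without Cre against 196 ± 48.9 CPM for Med12cKO (log2 fold change −0.029, SE 0.17). In all 4 genes Med12cKO replicate 3 was above every control.

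Genes for electron transfer were low in the same 2 libraries. Etfa and Etfb encode the 2 subunits of the electron transfer flavoprotein, and Etfdh the dehydrogenase that passes the electrons to ubiquinone. Etfb measured 516, 462 and 389 CPM across controls 1 to 3 against 349.8, 340.1 and 568 CPM across Med12cKO 1 to 3 (log2 fold change −0.12, SE 0.21), and 58.2% of its exon bases are shared with the same-strand model Gm45233. Etfa measured 398 ± 60.3 CPM without Cre against 361 ± 69.0 CPM for Med12cKO (log2 fold change −0.14, SE 0.17) and Etfdh 566 ± 61.2 CPM without Cre against 538 ± 72.7 CPM for Med12cKO (log2 fold change −0.073, SE 0.15). Med12cKO replicates 1 and 2 were below every control in all 3 genes. For Etfdh the margin was very small, at 497.98 and 494.75 CPM against 498.4 CPM in control replicate 3.

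Fuel choice and uncoupling genes had the lowest median of the 7 steps, −0.47 over 3 genes, and Pdk4 had the smallest p of all members. Pdk4 (chromosome 6, 5483351 to 5496309, minus strand) encodes the kinase that shuts off pyruvate dehydrogenase and so spares glucose when fatty acids are burnt. It measured 457, 614 and 464 CPM across controls 1 to 3 against 390.4, 316 and 396 CPM across Med12cKO 1 to 3. Every Med12cKO library was below every control, and replicates 1 and 3 were close to each other. The log2 fold change was −0.48 (SE 0.16), the Med12cKO mean was 71.8% of the control mean, and edgeR gave an unadjusted p of 0.015 (edgeR adjusted p = 0.913). DESeq2 gave an adjusted p of 0.280 and limma-voom 0.911. Over 17 alternative settings its log2 fold change stayed between −0.59 and −0.32. Pdk4 ranked 223 by p among the 13629 genes tested.

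Both uncoupling protein genes, which lie next to each other on chromosome 7, were lowest in Med12cKO replicate 2. Ucp3 (100472990 to 100486432, plus strand) encodes the muscle form and measured 73.0, 95.5 and 66.0 CPM across controls 1 to 3 against 56.9, 35.5 and 76.9 CPM across Med12cKO 1 to 3. The 2.17-fold range of its Med12cKO libraries was the widest of the 32 genes, and Med12cKO replicate 3 lay within the control range (log2 fold change −0.47, SE 0.27). Ucp2 (100493337 to 100502020, plus strand), a form that immune cells also express, measured 327, 359.9 and 417 CPM across controls 1 to 3 against 339, 237 and 392 CPM across Med12cKO 1 to 3 (log2 fold change −0.19, SE 0.19). Its highest library was control replicate 3, 1 of the 2 libraries with T cell transcripts. Without those 2 libraries the log2 fold change of Ucp2 was −0.13. Macrophage markers summed to 189.6 to 313 CPM in control and 168 to 235 CPM in Med12cKO over 9 genes, and their part in the Ucp2 values was not tested.

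**Figure D3:**
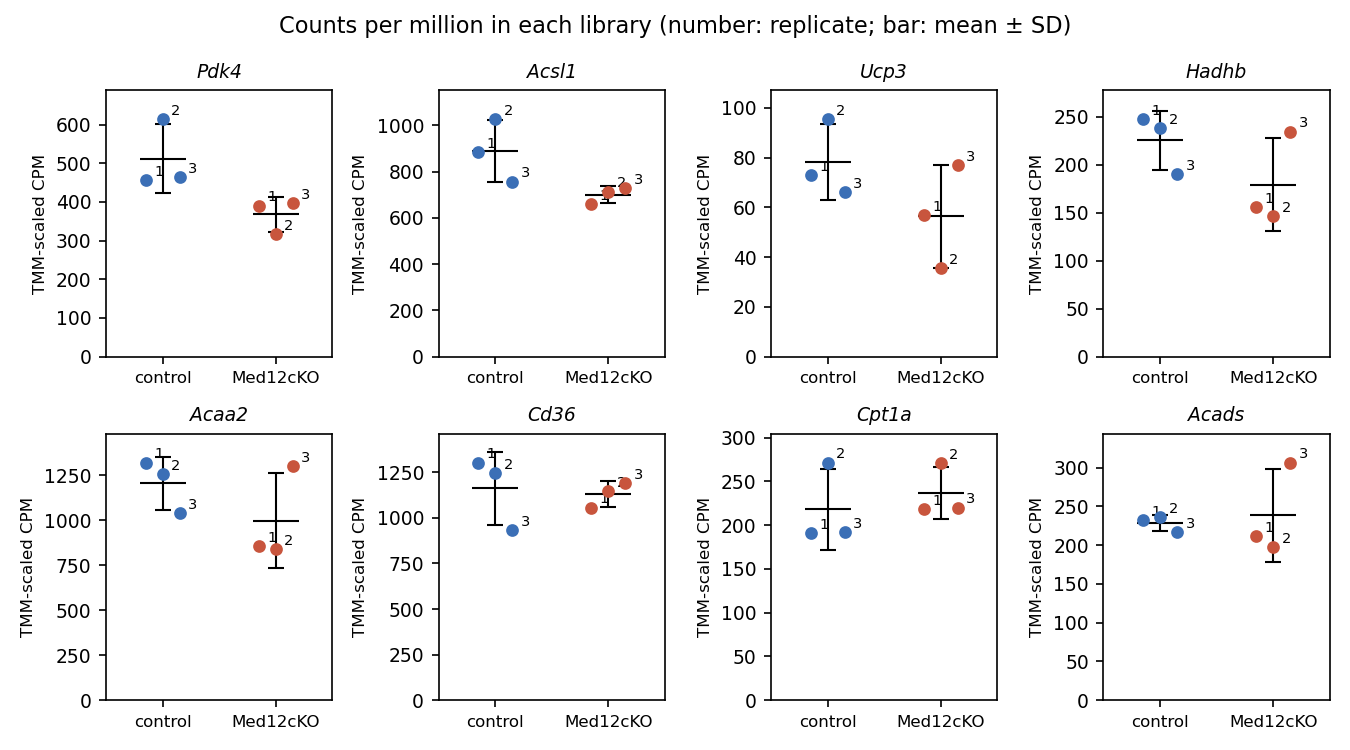
Each point is the TMM-scaled CPM of 1 library (numbers mark replicates, horizontal bars the mean, error bars the SD, n = 3), with control at left and Med12cKO at right and the y axis from 0. Pdk4 (512 against 368 CPM) and Acsl1 (889 against 699.7 CPM) have no overlap between groups, and the other 6 genes do.

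The bases before the members' starts were searched for motifs on both strands. Windows from the RefSeq table used here matched 27 of the 32 genes, with 31 windows of 250 bases, and Lpl, Acot13, Cpt1b, Acaa2 and Decr1 were not analysed here. The nuclear receptor half-site AGGTCA, the core of PPAR and ERR elements, was in 6 windows, or 19.4%, against 10.7% of windows of the same length before genes tested. These were the windows of Cd36, Plin5, Cpt1a, Acadvl, Acadm and Ucp3. TCAAGGTCA, which contains the half-site, and a direct repeat of AGGNCA with 1 base between, whose repeats can be half-sites, were in 0 member windows, against 0.245% and 0.215% of windows of genes tested. The GC box GGGCGGG was in 16 windows, or 51.6%, against 41.8%, and CCAAT in 15, or 48.4%, against 34.8%. A match describes the letters only.

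The windows of 3 members are shown with half-sites and CCAAT boxes of either strand in capitals, Pdk4 as the member with the smallest p, and Ucp3 and Acadm as windows with half-sites. They are chr6:5496310-5496528 on the minus strand, chr7:100472741-100472989 on the plus strand and chr3:153944644-153944893 on the minus strand (GRCm38.p6, RefSeq), each 5′ to 3′ and cut where an annotated exon begins. Pdk4 holds 1 CCAAT box, Ucp3 has 2 half-sites and Acadm has 1, at its distal end on the reverse strand.
Pdk4: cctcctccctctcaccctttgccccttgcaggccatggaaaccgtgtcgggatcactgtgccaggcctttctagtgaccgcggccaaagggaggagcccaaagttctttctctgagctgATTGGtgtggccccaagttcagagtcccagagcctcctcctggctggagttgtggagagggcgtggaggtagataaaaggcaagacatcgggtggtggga
Ucp3: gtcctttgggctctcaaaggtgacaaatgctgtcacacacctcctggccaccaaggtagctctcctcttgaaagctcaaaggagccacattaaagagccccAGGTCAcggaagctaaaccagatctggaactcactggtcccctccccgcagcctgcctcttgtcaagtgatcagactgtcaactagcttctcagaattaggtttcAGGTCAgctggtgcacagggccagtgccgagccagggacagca
Acadm: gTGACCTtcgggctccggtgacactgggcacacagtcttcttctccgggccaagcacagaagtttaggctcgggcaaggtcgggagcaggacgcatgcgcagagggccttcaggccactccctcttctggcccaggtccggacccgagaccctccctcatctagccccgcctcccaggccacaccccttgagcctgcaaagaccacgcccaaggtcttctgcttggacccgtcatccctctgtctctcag

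Ratios within a library do not depend on how libraries are scaled, so 4 pairs of members were compared in this way on the log2 scale by an exact two-sided permutation test, whose smallest possible p with 3 against 3 libraries is 0.10. Hadha to Hadhb was 2.93 ± 0.17 in control and 3.11 ± 0.084 in Med12cKO (SD, n = 3 each; exact p = 0.20). Etfa to Etfb was −0.20 ± 0.034 and −0.19 ± 0.15 (exact p = 1.0). Ucp3 to Ucp2 was −2.25 ± 0.38 and −2.55 ± 0.19 (exact p = 0.30). Cpt1b to Cpt1a was −4.58 ± 0.18 and −5.35 ± 0.26 (exact p = 0.10), with no overlap between groups and with the limit on Cpt1b counts given above. After Benjamini-Hochberg adjustment over the 4 ratios the lowest p was 0.40 (exact permutation test).

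Per exon length the members spanned a wide range of levels, and the same 3 genes were highest in both groups. In TMM-scaled CPM per kb of GENCODE exon, the highest control levels were those of Acaa2 (795 ± 96.6), Acadl (722 ± 68.7) and Fabp3 (669.6 ± 99.2), whose libraries overlapped. In Med12cKO these 3 genes were again the highest, at 658 ± 173, 734 ± 135 and 563 ± 168. Among the dehydrogenases the control level per kb ranked from Acadl through Acadvl (383 ± 27.8) and Acadm (172 ± 11.1) to Acads (101 ± 4.44), with no overlap between neighbours. Hadhb was at 34.2 ± 4.67 against 196 ± 16.4 for its partner Hadha. The lowest in control were Plin5 at 22.7 ± 6.29 and Cpt1b at 2.76 ± 0.948. The annotation the authors counted with is not given in the sources used here, so the exon lengths may not be theirs. Each length joins all annotated exons of a gene, 8730 bases for Hadha and 6595 for Hadhb. Differences in level between genes therefore depend on the annotated transcripts.

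**Figure D4:**
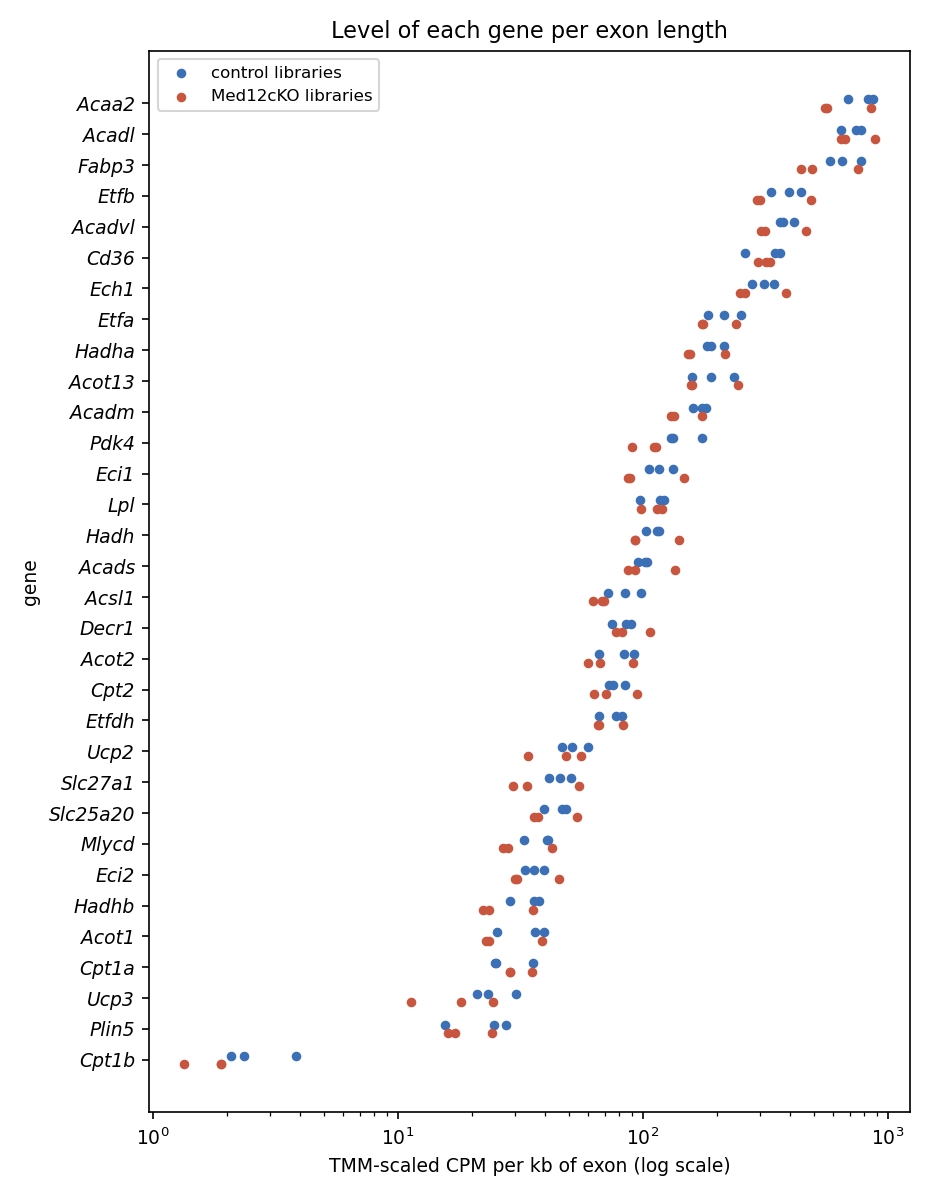
Each point is 1 library (3 control, 3 Med12cKO), with TMM-scaled CPM per kb of exon on a log x axis and the 32 genes on the y axis in order of their control mean. Levels run from 2.76 for Cpt1b to 795 for Acaa2 in control, and the groups overlap in all genes but Pdk4, Acsl1 and Cpt1b.

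Other genes of lipid metabolism did not share the lower median. Of 76 such genes tested (of 79 in the table), 37 had a negative log2 fold change and the median was 0.0067. None passed edgeR over all genes, and at an unadjusted p under 0.05 there were 2 lower and 4 higher. Vldlr, a lipoprotein receptor gene, and Slc22a5, the carnitine importer, were lower at −0.36 (SE 0.14) and −0.26 (SE 0.11). Acss1, an acetyl-CoA synthetase, Acaca, which makes malonyl-CoA, the lipolysis inhibitor G0s2 and Pdk3 were higher at 0.35 (SE 0.11), 0.34 (SE 0.13), 0.41 (SE 0.18) and 0.53 (SE 0.12). Acaca averaged 18.7 CPM in control. Its more abundant relative Acacb, at 351 CPM in control, had a log2 fold change of −0.16 (SE 0.25), with overlap between groups. Pdk3 encodes another pyruvate dehydrogenase kinase and measured 62.4, 52.4 and 57.2 CPM across controls 1 to 3 against 80.2, 76.5 and 91.3 CPM across Med12cKO 1 to 3. Its groups did not overlap, in the direction opposite to Pdk4, and it did not pass edgeR over all genes (edgeR adjusted p = 0.424). DESeq2 called it, as the 1 such call among these 76 genes, with an adjusted p of 0.049, and limma-voom did not (adjusted p = 0.422). The more abundant kinase genes Pdk2 and Pdk1 had the sign of Pdk4, at −0.41 (SE 0.23) and −0.13 (SE 0.13), with overlap between groups.

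The known regulators of fatty acid genes also did not pass the test. Of 20 tested, 13 were negative (median −0.10), with 2 lower and 1 higher at an unadjusted p under 0.05. Rxra, the retinoid receptor that pairs with PPARs, measured 129, 140.2 and 132 CPM across controls 1 to 3 against 103, 105 and 111 CPM across Med12cKO 1 to 3, without overlap between groups (log2 fold change −0.33, SE 0.11, edgeR adjusted p = 0.834). Lpin1, a phosphatidate phosphatase and coactivator gene, was lower at −0.38 (SE 0.16), and the ERR family gene Esrrb higher at 0.50 (SE 0.16), each without overlap. The more abundant ERR genes Esrra and Esrrg were at −0.14 (SE 0.17) and −0.086 (SE 0.17). Ppara was at −0.37 (SE 0.22), and the PGC-1 genes Ppargc1a and Ppargc1b were at −0.30 (SE 0.14) and −0.37 (SE 0.45). The groups overlapped for Esrra, Esrrg, Ppara, Ppargc1a and Ppargc1b. For comparison, 10 of 19 glycolysis genes were negative with a median of −0.015. Some counts in this list are uncertain. Gapdh averaged only 10.2 CPM in control against 1581 CPM for Aldoa, and Eno1, with at most 1 count per library, was not tested. By library, the median log2 ratio of the glycolysis genes was −0.14, −0.049 and 0.27 in Med12cKO replicates 1 to 3 and that of the other lipid genes −0.11, −0.070 and 0.18. Med12cKO replicate 3 was thus the highest Med12cKO library in these lists too, while the values of replicates 1 and 2 were nearer to 0 than those of the 32 members. The lists were described by counts and medians, and the difference between them was not tested.

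**Figure D5:**
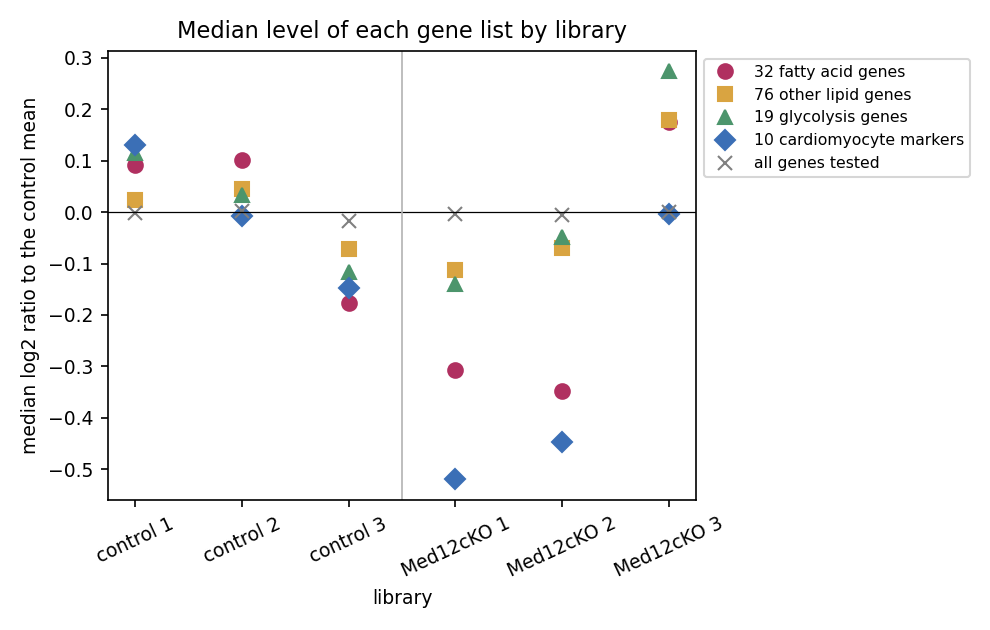
The y axis gives the median log2 ratio to the control mean for 5 sets of genes in each of the 6 libraries on the x axis, with controls left of the line. The 32 fatty acid genes sit at −0.31 and −0.35 in Med12cKO replicates 1 and 2, next to the cardiomyocyte markers at −0.52 and −0.45, and at 0.17 in replicate 3.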

How the data were processed

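RNA-seq was done on ventricles in 3 control and 3 Med12cKO samples. The authors deposited raw counts per gene symbol, and TopHat2 2.0.0, featureCounts and edgeR 3.14.0 are named with build GRCm38 per the submitters' processing notes. Strand setting, annotation and multi-gene read treatment are not given in the sources used here, so values of overlapping or duplicated genes are uncertain. The globin genes Hba-a1, Hba-a2, Hbb-bs and Hbb-bt had a count of 0 in all 6 libraries, and Gapdh had 65 to 114 counts. The part of read treatment in these counts was not tested.

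Groups came from sample titles. Counts of libraries within a group differed beyond counting noise, with a chi-square divided by its degrees of freedom of 15.3 to 31.0. Counts were tested with edgeR 4.0.16 (quasi-likelihood F test, robust, TMM, filterByExpr with minimum count 10 and total 15) in R 4.3.3, with Benjamini-Hochberg over all genes tested and a threshold of 0.05. The SE is the log2 fold change over the square root of F. DESeq2 1.42.0 and limma-voom (limma 3.58.1) were alternatives, on the same filtered genes. Library ratios used log2 CPM with a prior count of 2, and pair ratios a pseudocount of 0.5. A count of 0 allows up to 3 counts, 0.286 to 0.345 CPM, for counting error only. Exon lengths, overlaps and shared 50-base stretches came from GENCODE M21 (GRCm38).

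The members, gene lists and marker lists were chosen with earlier results of these data known. All 32 members are named. Of the other lipid genes and regulators, those with an unadjusted p under 0.05 were named, up to 4 per list or sublist. Acacb, Pdk1, Pdk2, Esrra, Esrrg, Ppara, Ppargc1a and Ppargc1b were named beside them for comparison. Alternatives were other tests, scalings, filters, blocks, left-out libraries and a length and GC correction. Libraries with T cell transcripts were those averaging at least 10 CPM over 10 markers.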

Additional observations from a re-analysis of the deposited data

How the results depend on the processing

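No member was called under any of the 17 alternative settings (lowest adjusted p 0.280, for Pdk4 by DESeq2). The count of genes called over all genes was 3, and 65 with DESeq2, 1 with the 4 libraries of letter I, and between 1 (without Med12cKO replicate 3) and 3 when 1 library was left out. The median of the 32 members was 0.022 with letter I only and otherwise between −0.35 (without Med12cKO replicate 3) and −0.038 (without Med12cKO replicate 2). The 4 within-library ratios moved by less than 1 SD under each alternative. Of 544 member values under alternatives, 47 changed sign, 26 of them with 1 library left out, and the cause was not tested. With letter I only these were the log2 fold changes of Cd36 (0.056), Fabp3 (0.029), Plin5 (0.046), Acot2 (0.014), Acot13 (0.22), Cpt1a (−0.068), Cpt2 (0.088), Slc25a20 (0.066), Acadvl (0.014), Hadh (0.11), Ech1 (0.13), Eci1 (0.077), Eci2 (0.083), Etfa (0.066), Etfb (0.12) and Etfdh (0.061). With library totals only they were Lpl (0.0085) and Cpt2 (0.0054), without the libraries with T cell transcripts Hadh (0.0085) and Eci2 (0.00014), and with the length and GC trend removed Acadl (−0.0084). With 1 library left out the ranges of genes that changed sign were Cd36 (−0.18 to 0.054), Lpl (−0.12 to 0.043), Acot13 (−0.30 to 0.10), Ech1 (−0.29 to 0.050), Cpt2 (−0.21 to 0.092), Eci2 (−0.26 to 0.074), Acadl (−0.14 to 0.098), Slc25a20 (−0.30 to 0.0052), Hadh (−0.27 to 0.061), Acadvl (−0.31 to 0.022), Etfb (−0.40 to 0.0091), Acads (−0.16 to 0.18) and Decr1 (−0.061 to 0.18). Same-numbered libraries were not paired by the labels, and deviations from the group mean correlated at −0.31, 0.44 and −0.35, with 2 of 6 libraries closest to their own number. With the replicate number as a block 2 genes and 0 members were called, and the median of the members was −0.16. The SE of the members, 0.148 to 0.281 on the log2 scale, limits what 3 libraries a group can show. For Cpt1b the small number of counts adds to that limit.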
